A study of Homo sapiens with 6 samples.

Results

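The nuclear genes of oxidative phosphorylation were followed through a set of drug treatments of A375, a human melanoma line in long-standing laboratory use whose BRAF kinase is mutated. Members were the gene symbols that start NDUFA, NDUFB, NDUFC, NDUFS or NDUFV, SDHA to SDHD, UQCR, COX4 to COX8 or ATP5, without NDUFA4L2 and the NDUFAF assembly factors. A probe set of its own, one that names a single gene, was found for 82 such symbols. Of these, 77 were protein-coding and were kept as members, among 19676 genes in the whole table, and 5 were antisense or divergent transcripts or pseudogenes and were set apart. The members divide into 33 genes of complex I, 3 of complex II, 6 of complex III, 17 of complex IV and 18 of complex V. Another 11 coding symbols were not analysed here, SDHB, NDUFS8 and UQCRFS1 among them.

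RNA was hybridised to 6 Affymetrix arrays, 1 for each condition. Cells were treated for 6 h with DMSO as the solvent control, with vemurafenib at 10 µM, with AT9283 at 100 nM, or with both at these doses. A further array each came from cells kept for 16 h with DMSO or with vemurafenib at 10 µM. All cultures were of the same cell line in the same serum-containing medium, and no other allele or agent is given. Vemurafenib inhibits the mutated BRAF kinase, and AT9283 inhibits several kinases, the Aurora kinases among them. With 1 array per condition no difference between conditions has a replicate error, and the number of arrays limits the precision of every value. In RNA of whole cultures, fewer cells of a type and less RNA per cell cannot be told apart.

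Oxidative phosphorylation is the last stage of respiration in the inner mitochondrial membrane. Complex I takes electrons from NADH and complex II from succinate. Complex III passes them to cytochrome c, complex IV passes them on to oxygen, and complex V, the ATP synthase, uses the resulting proton gradient to make ATP. Most subunits are made in the cytosol from nuclear genes and imported, while a small set of core subunits is encoded by mitochondrial DNA. In melanoma, BRAF signalling is known for its influence on this machinery, in part through the pigment-cell factor MITF and the coactivator PPARGC1A.

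The promoters of nuclear respiratory genes are known for binding the factors NRF1 and GABP, an ETS-family factor. Windows of 250 bases before to 50 bases after the gene start were taken from RefSeq (build GRCh38.p14), and 66 of the 77 members had one. Promoters of 4 members are printed 5′ to 3′, and whether the values below depend on them was not tested. COX5B (chr2:97645812-97646111, plus strand), NDUFA1 (chrX:119871582-119871881, plus strand) and NDUFA3 (chr19:54102605-54102904, plus strand) were members with 16 h differences above 0.4 on the log2 scale, and NDUFAB1 (chr16:23596267-23596566, minus strand) had the largest decrease. They were chosen after their values were seen. Capitals mark matches, on either strand, to the core of the NRF1 consensus, the ETS letters CCGGAAG or the YY1 letters AAGATGGCG.
COX5B: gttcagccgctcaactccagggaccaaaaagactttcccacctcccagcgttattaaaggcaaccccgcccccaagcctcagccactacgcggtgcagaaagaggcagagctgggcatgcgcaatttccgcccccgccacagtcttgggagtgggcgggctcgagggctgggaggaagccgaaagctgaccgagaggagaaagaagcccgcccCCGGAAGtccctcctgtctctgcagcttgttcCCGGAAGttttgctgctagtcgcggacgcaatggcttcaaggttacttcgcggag
NDUFA1: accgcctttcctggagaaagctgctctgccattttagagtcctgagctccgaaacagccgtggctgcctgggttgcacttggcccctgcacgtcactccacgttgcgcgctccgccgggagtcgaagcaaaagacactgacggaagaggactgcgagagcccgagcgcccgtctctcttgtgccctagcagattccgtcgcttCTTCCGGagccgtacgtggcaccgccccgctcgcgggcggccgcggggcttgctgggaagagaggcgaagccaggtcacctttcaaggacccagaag
NDUFA3: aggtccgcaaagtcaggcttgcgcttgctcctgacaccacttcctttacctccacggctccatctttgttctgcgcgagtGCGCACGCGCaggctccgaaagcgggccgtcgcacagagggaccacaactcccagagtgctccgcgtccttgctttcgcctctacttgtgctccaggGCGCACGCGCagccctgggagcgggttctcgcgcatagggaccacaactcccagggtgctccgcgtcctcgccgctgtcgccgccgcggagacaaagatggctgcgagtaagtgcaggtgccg
NDUFAB1: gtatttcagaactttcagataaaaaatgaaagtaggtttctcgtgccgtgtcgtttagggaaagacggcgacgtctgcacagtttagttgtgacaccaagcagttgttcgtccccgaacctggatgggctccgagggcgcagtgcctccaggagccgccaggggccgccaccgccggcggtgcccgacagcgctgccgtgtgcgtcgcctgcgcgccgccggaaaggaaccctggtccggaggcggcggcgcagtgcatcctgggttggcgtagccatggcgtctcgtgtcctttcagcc
COX5B held 2 ETS matches, with first bases 37 and 5 bases before the start, and NDUFA1 held 1, which began 47 bases before it. NDUFA3 held 2 NRF1 matches, which began 170 and 73 bases before the start. None of the searched letters was in the NDUFAB1 window, nor in those of NDUFB1, ATP5IF1, COX7C, NDUFB11 and COX7A2L, whose 16 h differences were also above 0.4. NDUFA11 and NDUFS7, each with 0.41 at 16 h, did hold searched letters. The NDUFA11 window held 1 match to the NRF1 core, and that of NDUFS7 held 1 to the YY1 letters.

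Among the 66 member windows, 10 (15.2%) held the NRF1 core, against 3.95% of 15843 coding genes and 6.3% of the 7474 genes with a window that were above the floor on these arrays. The floor is a mean log2 intensity of 6. A looser NRF1 core, with any letter at the position where the core takes A or G, was in 16 (24.2%), against 8.58% and 13.4%. The looser core was the one searched first, and the narrower one was adopted after those shares had been counted. ETS letters were in 18 member windows (27.3%), against 14.2% of coding genes and 22.1% of the genes above the floor. YY1 letters were in 7 (10.6%), against 2.74% and 4.66%. The E-box CACGTG was in 7 windows (10.6%, against 8.88% of coding genes and 10.9% of the genes above the floor), the CRE-like TGACGTCA in 4 (6.06%, against 2.59% and 3.52%) and TGATGNAA, letters bound by ATF4 with its partners, in 1 (1.52%, against 2.53% and 1.73%). In 68 windows of mitochondrial ribosome genes the NRF1 core was in 2.94%, its looser form in 11.8%, the ETS letters in 42.6% and the YY1 letters in 17.6%. The median GC content was 61.2% in the member windows and 62.7% in those of coding genes. Members above the floor with the NRF1 core had a median vemurafenib difference at 16 h of 0.24 on the log2 scale, and those without had 0.28. For the ETS letters these medians were 0.31 and 0.26. A match is a description of the letters and not a binding site, and no difference between these shares or medians was tested.

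The arrays were close in scale. Their median log2 intensities over probe sets, which are below the floor, lay between 4.33 and 4.43. On each array 44.7% to 46.1% of the genes reached the floor. Over probe sets with a mean log2 intensity of at least 10, the median was 10.90 on every 6 h array. It was lower at 16 h, with 10.82 for DMSO and 10.75 for vemurafenib. Of the 11 measured melanoma markers 5 were above the floor, SOX10, MITF, ERBB3, CSPG4 and MCAM, while the pigment genes PMEL, MLANA, TYR and TYRP1 were below it. Of 17 markers of blood, endothelium, epithelium, liver, red cells, muscle and neural cells, 1 was above the floor, the keratin KRT18. KRT18 was lower with vemurafenib in every pair, with -0.61 at 6 h, -0.51 with AT9283 present and -0.86 at 16 h (limma adjusted p = 0.0358). In the same order ERBB3 had 1.09, 0.85 and 1.08 (limma adjusted p = 0.0146), and SOX10 had -0.82, -0.55 and 0.28. The summed level of these lists was not used, since probe set intensities of different genes have no common scale. KRT5, an epithelial keratin, passed the floor on the 16 h vemurafenib array (log2 6.40, against 5.16 with DMSO), and the part of these marker differences in the results was not tested. The 6 h values of 1118 probe sets sat on the wrong rows and were left out. This changed the probe set used for 1 member, NDUFB7, a subunit of the distal membrane arm of complex I.

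Of the 77 members, 70 were above the floor on every array, and 54 had a mean log2 intensity of at least 10. The other 7 reached the floor on no array. They are COX4I2, COX6A2, COX6B2, COX7A1 and COX8C, which are isoforms of complex IV subunits restricted to certain tissues, ATP5MF of the complex V membrane part, and NDUFB7 on the probe set that was left. ATP5MF was read on the only probe set that names it alone, with a mean log2 of 4.38. Whether this low reading comes from the gene or from the probe set was not tested. The restricted isoform COX7B2 was above the floor, with log2 intensities of 7.97 to 8.24 over the 6 arrays. For NDUFB7, the probe set left out, with its 6 h values put back in order, read 10.16 with DMSO, 10.16 with vemurafenib, 10.06 with AT9283 and 10.19 with both at 6 h, then 10.06 and 10.35 with DMSO and vemurafenib at 16 h.

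Vemurafenib was compared with its control in 3 pairs of arrays that share no array: vemurafenib and DMSO at 6 h, both drugs and AT9283 alone at 6 h, and vemurafenib and DMSO at 16 h. The question was how far the nuclear respiratory genes move when BRAF is inhibited. They were slightly higher with vemurafenib in each pair, by a median of 0.12 on the log2 scale (8.74%) at 6 h, 0.11 (7.62%) at 6 h with AT9283 present and 0.26 (20.0%) at 16 h over the 70 members above the floor. Over the 8885 genes above the floor these medians were 0.02, 0.03 and -0.03. Over the 1235 genes whose mean log2 intensity reached 10, which are closer to the members in brightness, they were 0.03, 0.03 and -0.08.

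At 6 h, 69 of the 70 members were above 0, where 54.2% of the genes above the floor were. With AT9283 present 70 of 70 were above 0, where 58.6% of genes were. At 16 h, 65 of 70 were, where 46.4% of genes were. In all 3 pairs together 65 of 70 members were higher with vemurafenib, against 33.7% of genes, and 0 were lower, against 28.7%. These counts depend on the probe sets used. Of all 77 members, 73 were above 0 at 6 h, 74 with AT9283 present and 69 at 16 h. Without shared-suffix probe sets these counts were 68, 64 and 58, and with the mean of all probe sets of a gene 68, 66 and 61. The differences were small for single genes. No member reached a log2 difference of 1, which is 2-fold, in any of these pairs. That size was reached by 1.03% of genes upward and 2.14% downward at 6 h, by 0.452% and 1.97% with AT9283 present, and by 5.19% and 5.79% at 16 h.

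A smaller size rule, a log2 difference of at least 0.3 (1.23-fold) with the higher array at the floor, was met upward by 30 of 70 members at 16 h, where 25.8% of genes met it. Among the 54 bright members 27 met it, where 14.7% of equally bright genes did. Downward it was met at 16 h by NDUFAB1 alone, where 27.8% of genes met it. At 6 h the rule was met upward by NDUFA2 alone, where 12.3% of genes met it, and downward by 0 members, where 13.9% did. These rules measure size and are not tests. In the text, higher and lower describe these arrays only.

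**Figure D1:**
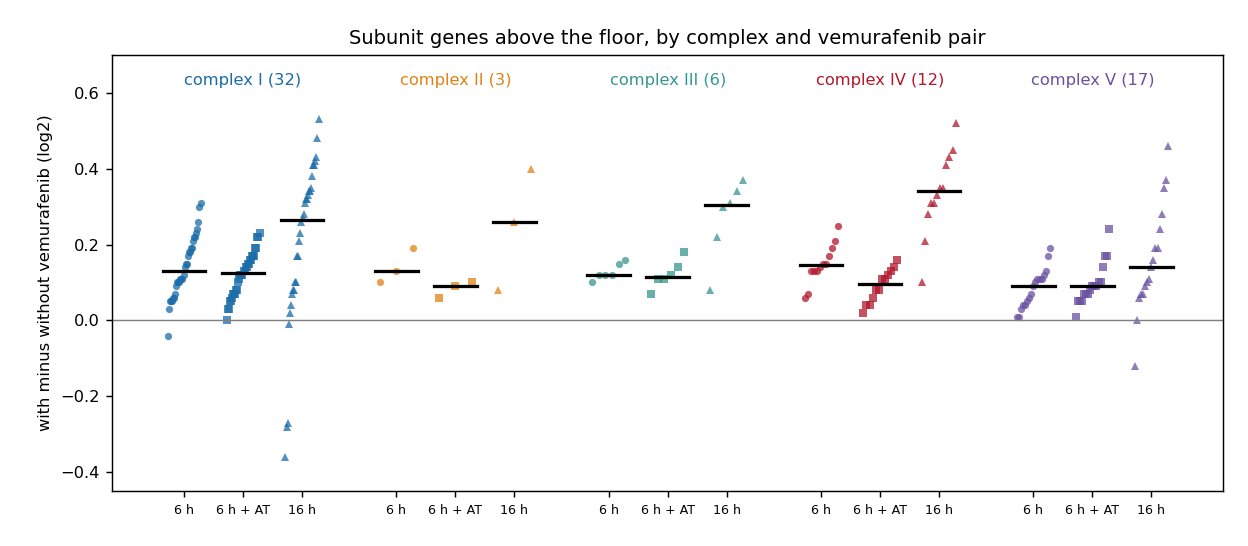
Log2 intensity with vemurafenib minus that without it, for the 70 members above the floor, in the pairs at 6 h (circles), at 6 h with AT9283 on both arrays (squares) and at 16 h (triangles). Each point is 1 gene, black bars are medians and the number of genes is in brackets. The 16 h medians run from 0.14 in complex V to 0.34 in complex IV, and the lowest 16 h points are NDUFAB1, NDUFV3 and NDUFV2 of complex I.

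Complex IV, cytochrome c oxidase, had the highest median at 16 h, 0.34, and all 12 of its members above the floor were higher. Complex III followed with 0.30 (6 of 6 higher), then complexes I (28 of 32) and II (3 of 3), both with 0.26, and complex V with 0.14 (16 of 17). With members below the floor included, the 16 h median was 0.31 in complex IV, 0.26 in complex I and 0.24 over all 77 members, and with the mean of all probe sets of a gene in place of the brightest it was 0.206, 0.136 and 0.15. The 0.3 rule was met upward at 16 h by 9 of 12 members of complex IV, 3 of 6 of complex III, 1 of 3 of complex II, 14 of 32 of complex I and 3 of 17 of complex V. At 6 h the complexes lay closer together, with medians of 0.15, 0.12, 0.13, 0.13 and 0.09 for IV, III, I, II and V. The SD over members at 16 h was 0.22 in complex I and 0.11 in both III and IV. Differences between complexes were not tested, because members of one array are not replicates.

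Complex I carries electrons from NADH down its peripheral arm to ubiquinone and pumps protons through its membrane arm. Subunits of the membrane arm had the larger differences at 16 h. As grouped here, the median was 0.35 over 8 proximal and 0.33 over 10 distal membrane subunits, and all 18 were above 0. The proximal group took in NDUFA9, its lowest with 0.08. The median was 0.10 over the 10 subunits of the N module, which oxidises NADH. It was 0.02 over only 3 subunits of the Q module, which reduces ubiquinone, and these ranged from -0.01 to 0.41. At 6 h the N and Q modules were not behind, with 0.13 and 0.18 against 0.11 and 0.18 for the proximal and distal membrane arm. Of the catalytic core subunits, which together hold the flavin and iron-sulfur centres, 5 were measured. Their median at 16 h was 0.04, and 27 accessory subunits had 0.27. The core median is the value of NDUFS1, whose other probe set above the floor had 0.28 at 16 h. The contrast therefore depends on the probe set used.

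NDUFB1, an accessory subunit of the distal membrane arm, had the largest difference of any member above the floor at 16 h. Its log2 intensity was 10.85 with DMSO, 11.07 with vemurafenib, 10.87 with AT9283 and 11.00 with both drugs at 6 h, and 10.76 with DMSO and 11.29 with vemurafenib at 16 h. Each array with vemurafenib read above each array without it. The difference was 0.53 (44.4%) at 16 h and 0.22 at 6 h. NDUFA3, a proximal membrane subunit, read 9.75, 9.90, 9.67 and 9.90 in the same order at 6 h, then 9.80 and 10.29 at 16 h, a difference of 0.48. Here too the 3 vemurafenib arrays lay above the others. NDUFB11, of the distal membrane arm, was 0.43 higher and NDUFA1, a small proximal subunit, 0.42 higher at 16 h.

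NDUFA2, an accessory subunit of the N module, had the largest difference at 6 h, 0.31. It read 10.66 with DMSO, 10.97 with vemurafenib, 10.64 with AT9283 and 10.81 with both drugs at 6 h, and 10.75 and 11.08 at 16 h. NDUFB5 and NDUFB8, of the distal membrane arm, followed at 6 h with 0.30 and 0.26, and had 0.34 and 0.31 at 16 h. NDUFS7, the Q-module core subunit with the last iron-sulfur cluster before ubiquinone, was 0.41 higher at 16 h, and NDUFV1, the flavin-binding core subunit, 0.32. Other core subunits had smaller values at 16 h. NDUFS1, which carries several iron-sulfur clusters, had 0.24 at 6 h and 0.04 at 16 h on the probe set used. On its dimmer probe set above the floor (mean log2 7.04) it had 0.16 and 0.28. NDUFS3, a scaffold of the Q module, had 0.03 and -0.01. The accessory Q-module subunit NDUFA5 had 0.23 at 6 h and 0.02 at 16 h.

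Lower values with vemurafenib at 16 h were found for NDUFAB1, NDUFV3, NDUFV2, NDUFS3 and, in complex V, ATP5MC1. NDUFAB1 is the mitochondrial acyl carrier protein, which serves fatty acid synthesis and is also bound to complex I. It read 12.27 with DMSO, 12.23 with vemurafenib, 12.25 with AT9283 and 12.25 with both drugs at 6 h, and 12.19 and 11.83 at 16 h. Only the last array stood apart, by -0.36 (-22.1%). NDUFV2, the N-module core subunit with a 2-iron cluster, read 10.56, 10.61, 10.54 and 10.63 at 6 h, and 10.43 and 10.15 at 16 h, a difference of -0.27. NDUFV3, a small N-module subunit, read 8.45, 8.51, 8.44 and 8.67 at 6 h, and 8.15 and 7.87 at 16 h, a difference of -0.28, and its 16 h DMSO array was already below every 6 h array.

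**Figure D2:**
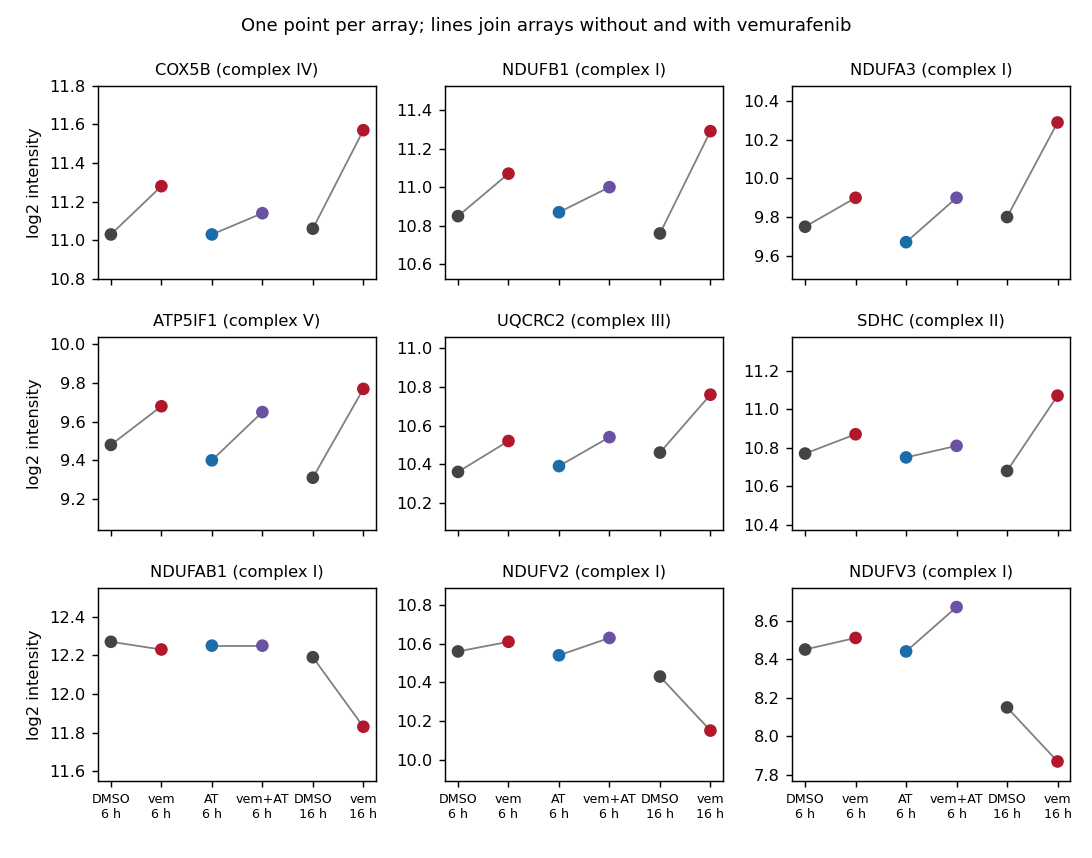
Log2 intensity of 9 named members on each array, labelled by treatment (vem, vemurafenib; AT, AT9283) and time, with grey lines joining each pair without and with vemurafenib. Every panel spans 1 log2 unit around its own values. In the upper 6 panels the 16 h pair has the largest difference, 0.53 for NDUFB1 and 0.52 for COX5B, and in the lowest row that difference is -0.36, -0.27 and -0.28.

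Complex II, succinate dehydrogenase, is also an enzyme of the tricarboxylic acid cycle. SDHC, one of its membrane anchors, read 10.77 with DMSO, 10.87 with vemurafenib, 10.75 with AT9283 and 10.81 with both drugs at 6 h, and 10.68 and 11.07 at 16 h, a difference of 0.40. SDHA, the flavin subunit that oxidises succinate, read 8.72, 8.85, 8.68 and 8.77 at 6 h, and 8.83 and 9.08 at 16 h, a difference of 0.26. SDHD, the second anchor, was the exception in time, with 0.19 at 6 h and 0.08 at 16 h, on readings of 10.28, 10.47, 10.31 and 10.42, then 10.28 and 10.37.

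In complex III the highest member at 16 h was UQCR11, its smallest subunit, with 0.37. UQCRB, which helps to bind ubiquinone, had 0.34, and UQCRQ, another small subunit, had 0.31. UQCRC2, a core protein that faces the matrix, read 10.36, 10.52, 10.39 and 10.54 at 6 h, and 10.46 and 10.76 at 16 h, so that the difference was 0.16 at 6 h and 0.30 at 16 h. Its partner UQCRC1 had 0.10 and 0.22. The lowest was UQCR10, a small subunit, with 0.12 and 0.08.

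Complex IV differences were led by COX5B, a zinc-binding subunit on the matrix side. It read 11.03 with DMSO, 11.28 with vemurafenib, 11.03 with AT9283 and 11.14 with both drugs at 6 h, and 11.06 and 11.57 at 16 h, a difference of 0.52 (43.0%). The arrays with vemurafenib all lay above those without. COX7C had 0.45, COX6C 0.43 and COX7A2L, which takes part in joining complexes III and IV, 0.41. The common isoforms were higher at 16 h together: COX6B1 and COX7A2 by 0.35 each, COX8A by 0.33, COX6A1 by 0.31 and COX4I1, the regulatory subunit that binds ATP, by 0.28. COX5A had 0.13 at 6 h and 0.10 at 16 h, the lowest of the common subunits at 16 h. COX7B2, the restricted isoform above the floor, had 0.07 and 0.21. For the 5 restricted isoforms below the floor the differences lay between -0.29 and 0.66 at 16 h and were not read.

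The subunit once called NDUFA4 is named COXFA4 in the annotation, so its symbol fell outside the rule. It is a component of complex IV, and it read 10.90, 11.02, 10.83 and 10.97 at 6 h, then 10.86 and 11.30 at 16 h, a difference of 0.44. Its relative COXFA4L3 read 6.08 with DMSO and 4.87 with vemurafenib at 16 h, and was below the floor on every array but that with DMSO at 16 h.

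Complex V stood lowest at both times without AT9283. Its catalytic F1 head and stalk had a median of 0.11 over 5 genes at 16 h, and the beta subunit ATP5F1B, which carries the catalytic sites, had 0.05 at 6 h and 0.11 at 16 h. The peripheral stalk, which holds the head still, had 0.21 over 4 genes, with ATP5PD at 0.37, ATP5PO at 0.35, ATP5PB at 0.07 and ATP5PF at 0.06. The 3 genes of the c-ring, the rotor, encode the same mature protein and differed: ATP5MC2 had 0.24, ATP5MC3 0.00 and ATP5MC1 -0.12 at 16 h. ATP5MC1 read 10.00, 10.03, 9.97 and 10.06 at 6 h, and 9.93 and 9.81 at 16 h.

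ATP5IF1, the inhibitor that stops the synthase from running backwards, had the largest difference of complex V. It read 9.48 with DMSO, 9.68 with vemurafenib, 9.40 with AT9283 and 9.65 with both drugs at 6 h, and 9.31 and 9.77 at 16 h. The differences were 0.19, 0.24 with AT9283 present, the highest of the 70 members above the floor in that pair, and 0.46. Its 3 probe sets all read higher with vemurafenib at 16 h, by 0.46, 0.43 and 0.32.

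**Figure D3:**
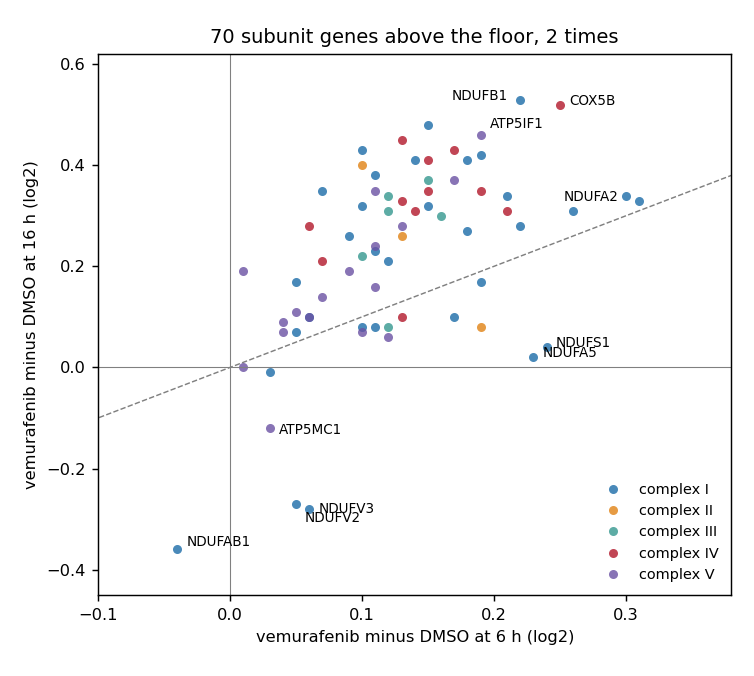
Vemurafenib minus DMSO at 6 h (horizontal) against 16 h (vertical), both on the log2 scale, for the 70 members above the floor, coloured by complex, with the dashed line at equal values. For 53 members the point lies above the line, and the 5 points below 0 at 16 h include NDUFAB1, NDUFV2, NDUFV3 and ATP5MC1.

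The 16 h difference exceeded that at 6 h in 53 of the 70 members and in 4018 of the 8885 genes above the floor. The median of the 16 h difference less the 6 h difference was 0.12 over all 70 members. Across the members, the differences at 6 h and 16 h gave Pearson's r = 0.55 and Spearman's rho = 0.53. Across all 8885 genes r was 0.72. The differences with AT9283 present at 6 h and those at 16 h had an r of 0.16 across the members and of 0.68 across all 8885 genes. These correlations are across genes of single arrays, which are not independent replicates.

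A fit of all 6 arrays with limma, in which each drug and time had a main effect, has 2 residual degrees of freedom, which hold the change of the vemurafenib effect with AT9283 and with time and no replicate error. Its vemurafenib effect was positive for 67 of the 70 members, with a median of 0.16 and a median SE of 0.068, against 0.02 for all 9707 genes tested. No member passed an adjusted p of 0.05 (limma, Benjamini-Hochberg over all genes), where 1.44% of genes passed upward and 3.33% downward. The lowest adjusted p was 0.081 (limma), for COX7B, a small complex IV subunit with an effect of 0.23. At an unadjusted p under 0.05 in limma, 25 members were higher, where 16.5% of genes were, and 0 were lower, where 14.8% were. With the 4 arrays at 6 h only, where 1 residual degree of freedom is left, limma called 23 members higher, where 14.9% of genes were, and 0 lower, where 14.4% were. Of these COX7B had the lowest adjusted p in limma, 0.0111, with an effect of 0.18 and an SE of 0.029.

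AT9283 alone was compared with DMSO at 6 h, which shares its DMSO array with the vemurafenib comparison. The members differed by a median of -0.02, and 20 of the 70 above the floor were above 0, where 55.8% of genes were. With each array centred on its median, 38 of all 77 members were above 0 in place of 21, so no direction is given. The lowest members above the floor were NDUFA9 and NDUFB11, both -0.13, and ATP5PO, -0.11, and the highest were COX5A, 0.09, and COX7A2, 0.08. No member met the 0.3 rule in either direction, where 2.33% of genes met it upward and 0.738% downward.

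Both drugs together were compared with vemurafenib alone at 6 h. The median was -0.04, and 16 of 70 members were above 0, where 57.9% of genes were. NDUFA2 had -0.16, NDUFB11 -0.15 and COX5B -0.14, while NDUFV3 had 0.16. Against DMSO the combination had a median of 0.09, and 67 of 70 members were above 0, where 60.2% of genes were. These comparisons share arrays with those of vemurafenib at 6 h. The DMSO arrays at 16 h and 6 h differed by a median of 0.01 over the members, with 38 of 70 above 0, where 42.7% of genes were. That median was -0.05 with arrays centred on their median and 0.09 with centring on bright genes, so it has no settled sign. NDUFV3 at -0.29 and NDUFA5 at 0.21 were its extremes among the members above the floor.

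**Figure D4:**
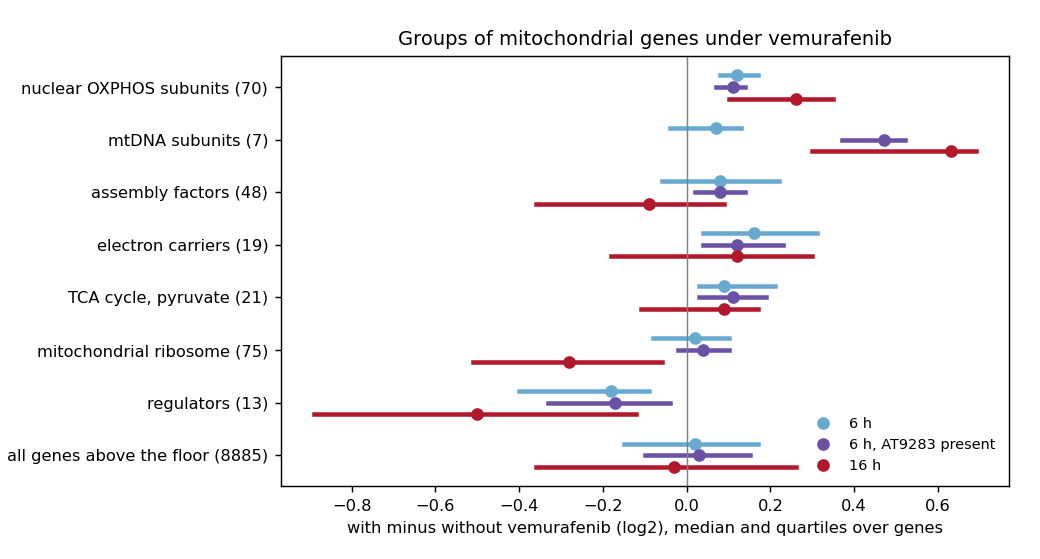
Median (point) and quartiles (bar) over genes of the log2 difference with minus without vemurafenib, in 3 pairs of arrays, for groups of mitochondrial genes above the floor (numbers in brackets). At 16 h the nuclear subunits lie at 0.26, while the mitochondrial ribosome lies at -0.28 and the regulators at -0.50.

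Other genes of the pathway were taken from lists, and their counts stand beside the same background of 25.8% of genes higher and 27.8% lower by 0.3 at 16 h. Assembly factors, which build the complexes without being part of them, were mixed in direction. Of 48 above the floor, 8 were higher and 16 lower by that rule, with a median of 0.08 at 6 h and -0.09 at 16 h. NDUFAF4, which helps to assemble complex I, read 9.50 with DMSO and 8.43 with vemurafenib at 16 h, a difference of -1.08. COA7, a complex IV factor, read 8.47 and 7.40, a difference of -1.07. SURF1, another complex IV factor, was 0.73 higher.

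The mitochondrial ribosome translates the subunits encoded by mitochondrial DNA. Of its 75 proteins, 37 were lower and 1 higher by 0.3 at 16 h, with a median of -0.28 after 0.02 at 6 h. MRPL17, of the large subunit, read 9.31 with DMSO and 8.07 with vemurafenib at 16 h, a difference of -1.24. Among 21 genes of the tricarboxylic acid cycle and pyruvate entry, 5 were higher and 3 lower, with a median of 0.09. PDK4, a kinase that shuts off pyruvate dehydrogenase, had a mean just below the floor and stands outside that count. It read 4.95 with DMSO, 6.44 with vemurafenib, 4.95 with AT9283 and 6.01 with both drugs at 6 h, and 6.16 and 7.46 at 16 h, a difference of 1.30 at the later time. Of 19 electron carriers and coenzyme Q genes, 5 were higher and 3 lower. PDSS1, which starts the side chain of coenzyme Q, had -1.03 at 16 h, on readings of 8.32 and 7.29, and cytochrome c, CYCS, had -0.60.

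Subunits encoded by mitochondrial DNA were named alone by a probe set for 7 genes. Their median was 0.07 at 6 h, 0.47 with AT9283 present and 0.63 at 16 h, and 5 of 7 were higher by 0.3 at 16 h. All 7 read lower with AT9283 alone, the control of the pair with AT9283, than with DMSO, with differences of -0.12 to -0.44, and both drugs against vemurafenib alone gave 0.06 to 0.39. COX1, the catalytic subunit of complex IV, read 9.95 with DMSO and 11.19 with vemurafenib at 16 h, a difference of 1.23. ND4, of the complex I membrane arm, had 0.74. ND6, the subunit gene on the other strand of the mitochondrial genome, read 9.69 with DMSO, 8.66 with vemurafenib, 9.25 with AT9283 and 9.05 with both drugs at 6 h, and 7.81 and 7.21 at 16 h. The 2 DMSO arrays differed by -1.87 there, more than any drug pair.

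Regulators of mitochondrial gene expression were mostly lower at 16 h. Of 13 above the floor, 8 were lower and 1 higher by 0.3 at 16 h, with a median of -0.50 after -0.18 at 6 h. MYC and PPARGC1B, whose means were below the floor, stand outside that count. MYC, a transcription factor of cell growth, read 7.44 with DMSO, 5.31 with vemurafenib, 7.23 with AT9283 and 4.36 with both drugs at 6 h, and 7.24 and 3.94 at 16 h. Its readings with vemurafenib were below the floor, and its limma effect over the 6 arrays was -2.77 (adjusted p = 0.019). PPARGC1B, a coactivator of respiratory genes, read 6.73, 5.68, 7.06 and 6.24 at 6 h, and 5.60 and 4.42 at 16 h, with a limma effect of -1.01 (adjusted p = 0.0321). The readings of 5.68, 5.60 and 4.42 are below the floor, so the fitted sizes for both genes rest in part on values near background. Its relative PPARGC1A was below the floor on every array, with readings of 3.45 to 4.72, and so was the nuclear receptor ESRRG, with 3.31 to 5.28.

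Of the other regulators, TFAM, which packages mitochondrial DNA, had -0.89 at 16 h, the transcription factor TFB2M -0.84, the ribosomal RNA methyltransferase TFB1M -0.93, the helicase TWNK -0.96 and the polymerase POLRMT -0.50. Their adjusted p in limma lay between 0.0688 and 0.22. The coactivator PPRC1 had -0.93 and NRF1 -0.46. For GABP, the partner subunit GABPB1 had -0.88 and the DNA-binding subunit GABPA -0.12. MITF was higher, by 0.61 at 6 h and 0.63 at 16 h (adjusted p = 0.0506 in limma). ESRRA, a nuclear receptor of respiratory genes, had -0.55 at 6 h and -0.02 at 16 h. YY1 and the hypoxia factor HIF1A had -0.12 and 0.00 at 16 h.

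Probe sets of one member did not always read alike. For 24 members with more than 1 probe set above the floor, all of them had the sign of the one used in 21 at 6 h and in 18 at 16 h. UQCR11 had 0.37 at 16 h on its bright probe set and -0.35 on a dim one, with mean log2 intensities of 10.36 and 6.54. Opposite signs were also found on brighter probe sets. ATP5MJ had 0.28 on the one used and -0.18 on another with a mean of 9.41. ATP5MG had 0.19 on the one used and -0.19 on another with a mean of 8.09. COX5B had 0.52, 0.51 and 0.50 on its 3 bright probe sets and 0.15 on a dim one. Respiratory subunit genes have many processed pseudogenes, and 187 are named for the members. The 44 members above the floor with a named pseudogene had a median of 0.26 at 16 h, and the 26 without had 0.28. The 41 members read on probe sets whose suffix marks possible sharing between transcripts had 0.28, and the 29 on other probe sets had 0.22.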

How the data were processed

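The data were 6 Affymetrix arrays of A375 cells, 1 per condition, assigned from the labels. The authors deposited a linear intensity for each probe set, made with RMA per the submitters' processing notes. The version of RMA, and whether all arrays were normalized together, was not stated in what was used here. Here they were converted to log2, and 1118 probe sets with misaligned 6 h values (2.04% of 54675) and 62 controls were left out. Over the misaligned rows the DMSO arrays had an r of 0.455, of 0.984 with the 6 h order restored, and of 0.992 over the rows used. Genes came from the platform annotation: 41097 probe sets had 1 symbol, 1801 several and 11777 were not listed. For each gene the probe set with the highest mean was used.

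Members and lists were chosen with earlier results of these data known. Named members were the extremes of each drug comparison and complex, the SDH genes, isoform pairs, ATP5IF1 and NDUFA4, with list genes past 2-fold and all regulators. Size rules were log2 differences of 1 and 0.3 with the higher array at log2 6. Limma 3.58.1 (R 4.3.3) was fitted to genes with an array at log2 6, with a trended prior and Benjamini-Hochberg adjustment. It was also run on simulated data with independent noise of the same SD for every gene. Since the residual degrees of freedom of these arrays hold no replicate error, that run cannot show whether the p-values here are sound. Promoter letters were searched with Python 3.11.15. Alternatives covered scaling, probe set choice, the floor, a pseudocount of 16, the misaligned rows, the control and the fit.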

Additional observations from a re-analysis of the deposited data

Results flagged for a closer look

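For 2 members above the floor the vemurafenib difference had opposite signs at the 2 times and changed by at least 0.3 between them. NDUFV2 was 0.05 higher at 6 h and -0.27 at 16 h, a change of -0.32 on the log2 scale. NDUFV3 was 0.06 higher at 6 h and -0.28 at 16 h, a change of -0.34. Both encode subunits of the N module of complex I. They were picked out because the single pairs of arrays at the 2 times had opposite signs and the change between them reached that size. Neither pair alone differed by 0.3 in either gene. ATP5MC1 (0.03 and -0.12) and NDUFS3 (0.03 and -0.01) also had opposite signs and changed by less. The difference between the times was not tested, since each time has 1 pair of arrays.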

How the results depend on the processing

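The limma fit over the 6 arrays is already a paired analysis, since its terms for AT9283 and time are the same model as a block on the 3 pairs. Of 712 medians and counts recomputed under the alternatives, 687 stayed within the range set for them and 25 moved. For medians the range was 0.1 on the log2 scale. That is about the size of the 6 h medians themselves, so staying within it says little about how steady those are. No median of a complex or of all members that had been called changed sign. With the mean of all probe sets of a gene, the 16 h median of complex I was 0.136 and that of complex IV 0.206, and the median of all 77 members was 0.15 in place of 0.24. The count of members higher by 0.3 at 6 h was 0 with arrays centred on their median, 2 with the mean of all probe sets and 2 without shared-suffix probe sets, and that of members lower at 6 h was 1 with misaligned rows kept and 1 with no floor. The count lower at 16 h was 2 with median centring, 0 with centring on bright genes (an alternative added after seeing the data, like the restored 6 h order), 2 without shared-suffix probe sets and 3 with a control averaged over both DMSO arrays. Counts that were 0 became 1 or 2 as follows: with no floor, 2 higher for the combination over AT9283, 1 lower with AT9283, 1 higher and 1 lower for the combination over DMSO, and 2 higher and 1 lower between the DMSO arrays. Between the DMSO arrays there was also 1 higher with quantile normalization, 1 higher by 0.3 and 1 by 2-fold with misaligned rows kept, 1 lower with median centring and 1 lower without shared-suffix probe sets. AT9283 gave 1 higher with the mean of all probe sets, and the combination over DMSO 1 higher with the mean DMSO control. The limma fit called 23 members with the 4 arrays at 6 h and 0 with all 6. Single members reversed: without shared-suffix probe sets ATP5MG was -0.187, NDUFA2 -0.305 and UQCR11 -0.354 at 16 h and COX5A -0.224 at 6 h. With the mean of all probe sets COX5A was -0.0452 and ATP5PO -0.0006 at 6 h, and with the mean DMSO control COX8C, below the floor, was 0.0459. Single arrays limit every value, and a reading below the floor is close to background.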
